A study of Mus musculus with 4 samples.

Results

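The genes described here are the heat shock proteins of mouse E14 embryonic stem cells and HSF1, a factor that controls several of them. Arrays compared these cells with and without valproic acid (VPA), a short fatty acid that inhibits histone deacetylases. The set names 10 genes: Hsf1, Hspb1, Hspa1a, Hspa2, Hspa4, Hspa8, Hsp90aa1, Hsp90ab1, Hsph1 and Dnajb1. A gene was measured where a probe set of the array, a group of short probes for 1 transcript, was annotated to that symbol and to no other. This held for 8 of the 10, with 13 probe sets among 19938 genes and 35556 probe sets in all. Hsf1 and Hsp90ab1 had no such probe set and were not analysed here. Where a gene had several probe sets, that with the highest mean over the arrays stands for it and the others are given beside it.

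The data are 4 one-colour Affymetrix arrays of total RNA, 2 of untreated cells and 2 of cells exposed to VPA at 0.5 mM for 4 h. E14 is a single established mouse embryonic stem cell line, and all cells were cultured in serum and leukemia inhibitory factor on fibroblasts whose division had been blocked with mitomycin C. Feeder RNA was therefore possible in both groups. The values are log2 signals, so a difference of 1 is a doubling. The labels call the arrays of a group replicates but name no separate cultures, and the p-values reflect only how far these arrays scatter, which may be technical variation.

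Heat shock proteins are chaperones that bind unfolded or partly folded proteins, keep them from clumping and pass them on for folding or degradation. HSF1 is held inactive in unstressed cells, and heat or misfolded protein lets it form trimers that bind heat shock elements, repeats of the bases GAA in alternating orientation, upstream of Hspa1a, Hspb1, Hsph1, Dnajb1 and other genes. In embryonic stem cells the constitutive members, such as Hspa8 and Hsp90ab1, are abundant without stress, where they serve the folding load of rapidly dividing cells.

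RefSeq promoter windows on GRCm38.p6 were held for 6 of the 10 genes: Hspb1, Hspa1a, Hspa2, Hspa4, Hsph1 and Dnajb1. The 250 bases before a listed transcription start are printed for the 3 genes whose untreated and VPA arrays did not overlap (Hspb1, Hspa2, Dnajb1) and for Hspa1a, the stress-inducible HSP70 gene. Capitals mark a pair of heat shock units, GAANNTTC or TTCNNGAA, each of which reads the same on both strands. The windows are Hspb1 (chr5:135887669-135887918, plus strand), Hspa1a (chr17:34972157-34972406, minus strand), Hspa2 (chr12:76404120-76404369, plus strand) and Dnajb1 (chr8:83607925-83608174, plus strand, the more upstream of its 2 listed starts), each written 5′ to 3′ along the gene. The Hspa2 window lies inside the annotated span of that gene, which begins at chr12:76403812. The bases before that position were not searched.

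Hspb1: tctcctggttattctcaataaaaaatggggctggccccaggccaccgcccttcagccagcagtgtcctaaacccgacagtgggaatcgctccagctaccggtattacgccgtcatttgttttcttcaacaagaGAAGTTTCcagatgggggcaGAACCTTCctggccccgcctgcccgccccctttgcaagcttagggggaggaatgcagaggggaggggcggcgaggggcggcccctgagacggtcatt
Hspa1a: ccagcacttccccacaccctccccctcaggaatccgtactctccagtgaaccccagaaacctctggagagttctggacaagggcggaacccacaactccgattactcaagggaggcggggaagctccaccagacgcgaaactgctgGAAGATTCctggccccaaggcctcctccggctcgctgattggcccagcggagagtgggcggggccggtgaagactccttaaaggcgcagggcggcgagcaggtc
Hspa2: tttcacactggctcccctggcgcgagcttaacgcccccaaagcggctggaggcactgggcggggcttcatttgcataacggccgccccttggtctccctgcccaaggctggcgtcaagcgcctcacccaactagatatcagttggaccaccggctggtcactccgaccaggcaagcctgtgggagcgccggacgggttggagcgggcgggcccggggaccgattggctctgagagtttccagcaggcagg
Dnajb1: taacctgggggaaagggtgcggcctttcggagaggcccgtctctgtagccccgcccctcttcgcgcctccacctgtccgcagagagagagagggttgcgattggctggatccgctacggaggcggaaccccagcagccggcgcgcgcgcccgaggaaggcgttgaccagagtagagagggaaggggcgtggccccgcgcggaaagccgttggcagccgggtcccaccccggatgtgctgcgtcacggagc

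Such a pair of units stood before the start of Hspb1, at 117 and 97 bases, and of Hspa1a, at 104 bases, and none was in the windows of Hspa2, Dnajb1 or Hspa4. It occurs in 12.8% of all 32851 RefSeq windows of 250 bases. Hsph1 has 2 listed starts, both inside its annotated span, whose 5′ end is at chr5:149636498. It held a pair at 54 bases before the more downstream start, which is also inside that span. It also held a run of 3 units, TTCNNGAANNTTC, 16 bases after that start, as shown with its flanks (chr5:149636288-149636300 for the run, minus strand).

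Hsph1: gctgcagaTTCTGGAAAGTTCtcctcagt

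A run of 3 units in either orientation (GAANNTTCNNGAA or TTCNNGAANNTTC) is in 0.603% of the windows of 300 bases, which include the 50 bases after the start. The 250 bases before Hspa1a and those before Hspa1b, its neighbour on chromosome 17, differed at 3 positions, and the pair of units was the same in both. A match, or the absence of one, describes only the letters of the window. Only exact pairs and runs were sought, and units with other letters or spacing were not.

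Among the measured genes, 3 had VPA arrays that lay wholly apart from the untreated ones, and they went both ways. Hspb1, a small heat shock protein, was lower with VPA, and Hspa2 and Dnajb1 were higher. Their differences were between 1.25-fold and 1.34-fold in size. The stress-inducible Hspa1a was 1.14-fold higher in the means with overlapping arrays, and the arrays also overlapped in the constitutive Hspa8, in Hspa4 and in the stress-responsive Hsp90aa1 and Hsph1, which differed by at most 1.07-fold. With limma and Benjamini-Hochberg adjustment over all 35556 probe sets, 0 of the 8 genes passed an adjusted p of 0.05, and the smallest adjusted p among them was 0.508. The share of probe sets passing was 0%. At an unadjusted p under 0.05, 2 of the 8 were higher and 1 lower, where 5.9% of all genes were higher and 2.71% lower, or 4.33% and 3.74% after a second quantile normalization. Groups that did not overlap were found for 2 genes higher and 1 lower, a share of 37.5%, and for 24.1% of all genes higher and 18.1% lower (21.1% and 21% after that normalization). The members' share is thus close to that of genes in general. At a difference of 1.5-fold without overlap there was none among the 8, against 0.973% of all genes higher and 0.266% lower. The median difference of the 8 genes was 0.081 and that of all genes 0.015.

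**Figure D1:**
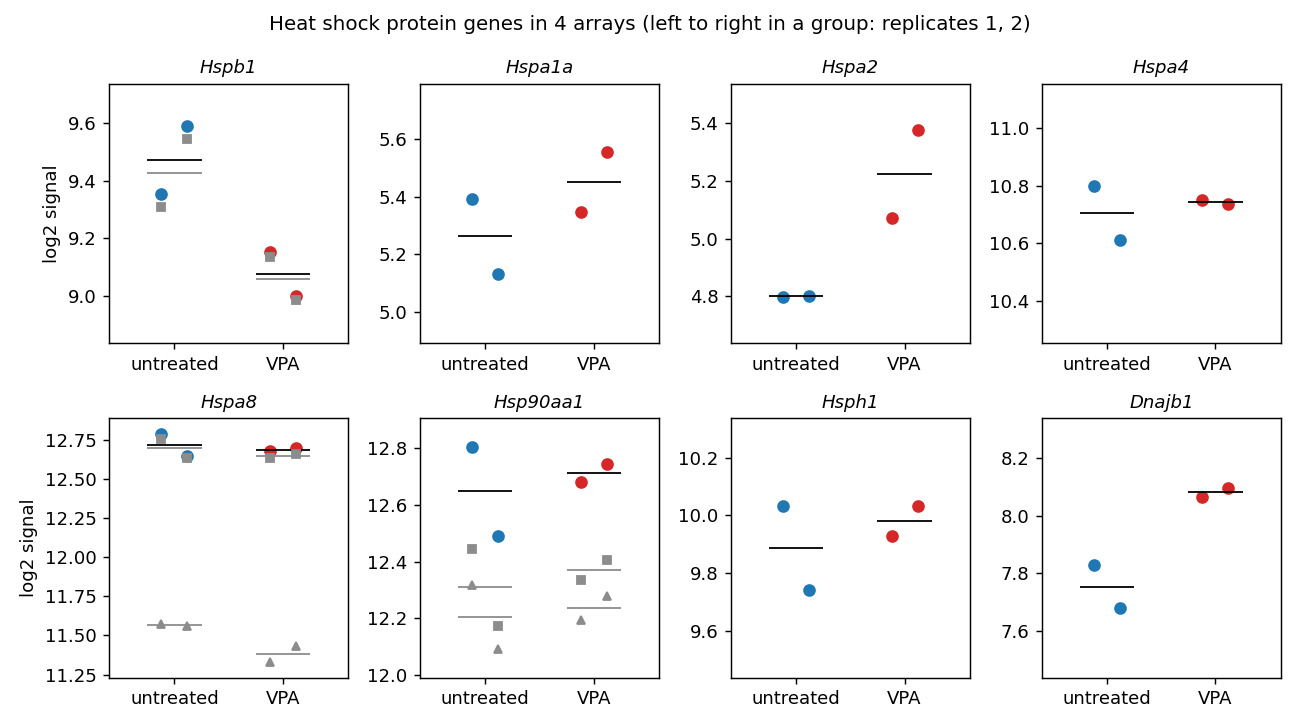
Log2 signal (vertical axes, each with its own range) of the 8 measured genes on the untreated arrays (blue) and VPA arrays (red). Circles are the probe set that stands for the gene, grey squares and triangles its other probe sets, and horizontal lines the means of 2 arrays; the colours separate in Hspb1, Hspa2 and Dnajb1 and interleave in the rest.

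Hspb1 encodes HSP25, a small heat shock protein that holds unfolded proteins in oligomers without using ATP. Its signal was 9.36 and 9.59 on the untreated arrays and 9.15 and 9.00 on the VPA arrays. Both VPA values lay below both untreated ones, although the untreated arrays were themselves 0.234 apart. The untreated mean was 9.47 ± 0.17 and the VPA mean 9.08 ± 0.11 (SD, n = 2), which gave a difference of −0.40 ± 0.14 (SE; 95% interval −0.75 to −0.045; unadjusted p = 0.034 and adjusted p = 0.514 in limma). A second probe set annotated to the same transcripts read 9.31, 9.55, 9.14 and 8.99 on the same arrays in that order and differed by −0.37 ± 0.14. The 2 probe sets share their annotated transcripts and are not separate evidence. Without untreated replicate 2, the higher of the untreated arrays, the difference was −0.28, and without untreated replicate 1 it was −0.51.

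The HSP70 proteins clamp onto exposed hydrophobic stretches of a client in a cycle driven by ATP. Hspa1a, the form that HSF1 induces most strongly under stress, read 5.39 and 5.13 on the untreated arrays and 5.35 and 5.55 on the VPA arrays. Untreated replicate 1 lay above VPA replicate 1, so the groups overlapped. The difference was 0.19 ± 0.15 (SE; 95% interval −0.20 to 0.57; adjusted p = 0.75 in limma), and it was 0.056 without untreated replicate 2, 0.084 without VPA replicate 2 and 0.32 without untreated replicate 1.

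A further probe set was annotated to both Hspa1a and Hspa1b, near-identical genes whose transcripts it cannot tell apart, and was not counted among the 13. It read 6.65 and 6.69 on the untreated arrays and 6.91 and 7.09 on the VPA arrays. These groups did not overlap, and the difference was 0.33 ± 0.12 (SE; 95% interval 0.022 to 0.63; adjusted p = 0.527 in limma). The probe set of Hspa1a alone and the shared one thus had the same sign and differed in whether the groups overlapped. No probe set was annotated to Hspa1b alone.

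Hspa2 encodes an HSP70 form best known from male germ cells, where it is needed for meiosis. Its signal was 4.80 on each untreated array and 5.07 and 5.38 on the VPA arrays. Both VPA arrays lay above the untreated ones, and the VPA arrays were 0.304 apart while the untreated ones differed by 0.0032. The untreated mean was 4.80 ± 0.0023 and the VPA mean 5.22 ± 0.21 (SD, n = 2), which gave a difference of 0.42 ± 0.14 (SE; 95% interval 0.059 to 0.79; unadjusted p = 0.031 and adjusted p = 0.508 in limma). Without VPA replicate 2 it was 0.27 and without VPA replicate 1 it was 0.58, so the size rests on which VPA array is read.

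Hspa8 encodes HSC70, the constitutive HSP70 that also uncoats clathrin vesicles and serves chaperone-mediated autophagy. Its brightest probe set read 12.79 and 12.65 on the untreated arrays and 12.68 and 12.70 on the VPA arrays. The VPA values lay between the untreated ones, and the difference was −0.029 ± 0.11 (SE; 95% interval −0.32 to 0.26; adjusted p = 0.96 in limma), which turned to 0.042 without untreated replicate 1. A second probe set differed by −0.050 ± 0.11. The third read 11.57 and 11.56 on the untreated arrays and 11.33 and 11.43 on the VPA arrays. Its groups did not overlap, with a difference of −0.19 ± 0.11 (adjusted p = 0.653 in limma), so the probe sets of Hspa8 disagree on whether the groups separate. A pair of probe sets annotated jointly to Hspa8 and to Snord14c and Snord14d, small nucleolar RNA genes, differed by −0.044 ± 0.20 and −0.047 ± 0.20 and was not counted.

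HSP110 proteins, distant relatives of HSP70, release ADP from HSP70 and so let it drop its client. Hspa4 read 10.80 and 10.61 on the untreated arrays and 10.75 and 10.74 on the VPA arrays. Hsph1, the stress-inducible HSP110 form, read 10.03 and 9.74 on the untreated arrays and 9.93 and 10.03 on the VPA arrays. In both genes untreated replicate 2 was the lowest array and untreated replicate 1 lay within or above the VPA values. The difference was 0.040 ± 0.12 (SE; 95% interval −0.27 to 0.35) for Hspa4 and 0.096 ± 0.14 (−0.27 to 0.46) for Hsph1. Without untreated replicate 2 both turned, to −0.053 and −0.050.

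Hsp90aa1 encodes the stress-responsive HSP90 form, a dimer that finishes the folding of kinases, receptors and other clients and that keeps HSF1 inactive by binding it. It read 12.81 and 12.49 on the untreated arrays and 12.68 and 12.75 on the VPA arrays. The VPA values again lay between the untreated ones, which were 0.316 apart. The difference was 0.066 ± 0.15 (SE; 95% interval −0.31 to 0.44; adjusted p = 0.927 in limma), and the other probe sets gave 0.061 ± 0.14 and 0.030 ± 0.13. Without untreated replicate 2 the difference was −0.092. For Hspa8, Hspa4, Hsph1 and Hsp90aa1 the intervals leave room for a change of up to 0.46 on the log2 scale in one direction or the other, so these arrays do not show that the genes stayed the same.

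Dnajb1 encodes HSP40, a J-domain co-chaperone that delivers clients to HSP70 and stimulates its ATPase, and is a well-known HSF1 target. Its signal was 7.83 and 7.68 on the untreated arrays and 8.07 and 8.10 on the VPA arrays. Both VPA values lay above both untreated ones and were within 0.032 of each other. The untreated mean was 7.75 ± 0.11 and the VPA mean 8.08 ± 0.023 (SD, n = 2), which gave a difference of 0.33 ± 0.11 (SE; 95% interval 0.032 to 0.62; unadjusted p = 0.036 and adjusted p = 0.52 in limma). It was 0.25 when untreated replicate 2 was left out and 0.40 when untreated replicate 1 was, and its unadjusted p was 0.055 in limma after a second quantile normalization.

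**Figure D2:**
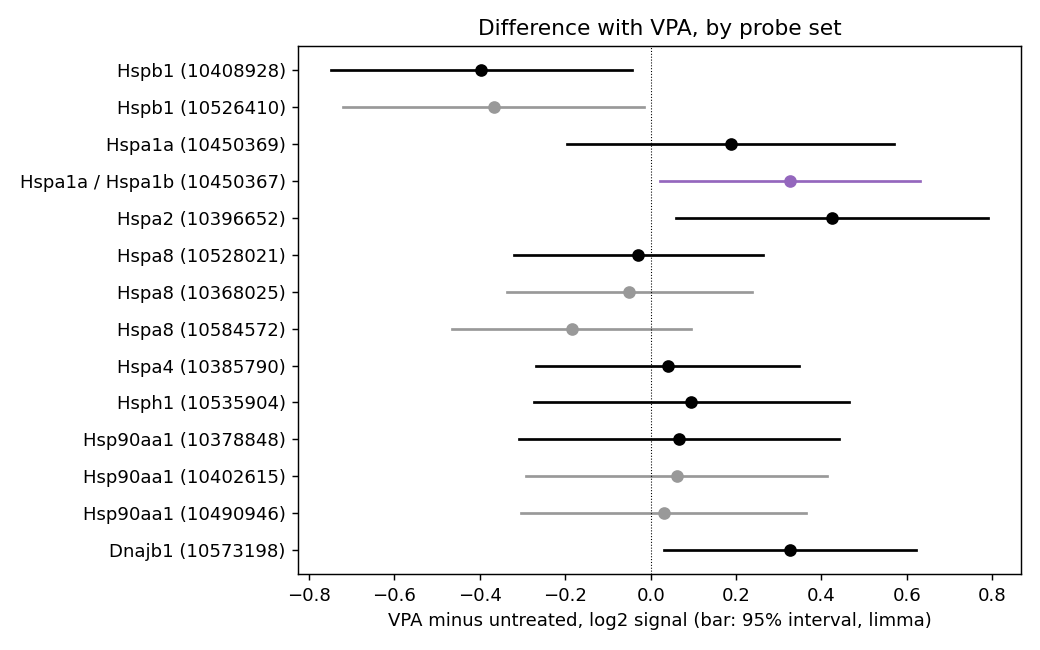
Difference between VPA and untreated arrays on the log2 scale (horizontal axis) for each probe set, with its 95% interval from limma. Black marks the probe set that stands for the gene, grey its other probe sets and purple the probe set shared by Hspa1a and Hspa1b; the intervals of Hspb1, Hspa2, Dnajb1 and the shared probe set lie off 0 before adjustment.

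The counts above depended on single arrays. At an unadjusted p under 0.05 in limma, the 3 genes of the full set became 0 without untreated replicate 2 or without VPA replicate 2, 1 (Hspa2) without VPA replicate 1 and 2 (Hspb1 and Dnajb1) without untreated replicate 1. The signs of Hspb1, Hspa1a, Hspa2 and Dnajb1 were kept in each of these. The median difference of the 8 genes was −0.052 when untreated replicate 2 was left out and 0.23 when untreated replicate 1 was.

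Untreated replicate 2 stood apart in these genes. It held the lowest of the 4 values in 6 of 8 genes, all but Hspb1 and Hspa2, and the highest in 1, Hspb1. The untreated arrays were further apart than the group means in 5 of 8 genes, and the untreated SD exceeded the VPA SD in 7 of 8. The same array was lowest in 39 of 83 other chaperone genes (47%), in 54.2% of the 1836 genes at or above the 90th percentile of signal, and in 30.2% of all genes. Over all probe sets the SD of its difference from untreated replicate 1 was 0.311, and 0.285 between the VPA arrays. Between the groups it was 0.297 and 0.301 for untreated replicate 1 against VPA replicates 1 and 2. For untreated replicate 2 it was 0.332 and 0.36. Untreated replicate 1 thus lay closer to both VPA arrays than to the other untreated array. The signals of Hspa4, Hspa8, Hsp90aa1, Hsph1 and Hspb1 lay between the 94.5th and the 99.8th percentile of probe sets, those of Dnajb1, Hspa1a and Hspa2 at 87.9, 67.5 and 64.4. Percentiles rank brightness on the array, which differs with the probes, and give no order of transcript levels. Without untreated replicate 2 the difference was −0.10 for Hspa8 and 0.43 for Hspa2.

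**Figure D3:**
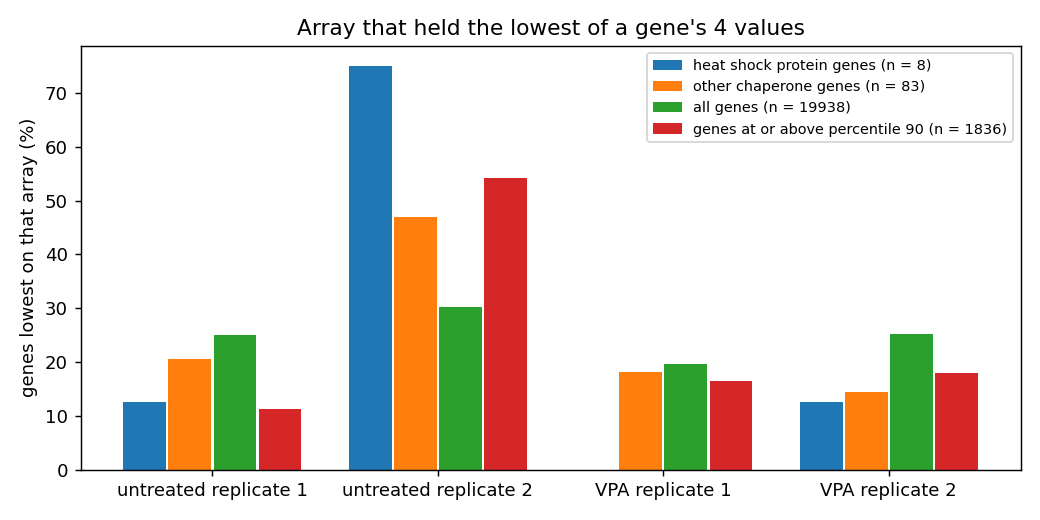
Share of genes (vertical axis, percent) whose lowest of 4 values fell on each array (horizontal axis), for the 8 heat shock protein genes, 83 other chaperone genes, all 19938 genes and the 1836 genes at or above the 90th percentile of signal. Untreated replicate 2 was lowest for 75% of the first set and 54.2% of the last.

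The rest of the chaperone network was read from 8 lists, which held 83 measured genes besides the 8. With limma and adjustment over all probe sets 0 of the 83 passed. At an unadjusted p under 0.05 in limma, 5 were higher and 1 lower, where 5.9% of all genes were higher and 2.71% lower. Those shares were 4.33% and 3.74% after a second quantile normalization. In either direction these were 6 of the 83 and 1717 of all 19938 genes. The count among the 83 changed when single arrays were left out. The median difference of the 83 was 0.047. It was 0.022 when untreated replicate 2 was left out, and 0.077 when the other untreated array was. The mean was higher with VPA in 53 of the 83, where it was higher in 10708 of all 19938 genes. The groups did not overlap in 22 genes higher and 6 lower, 33.7% of the 83 against 42.2% of all genes.

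Among HSP70 and HSP110 relatives 6 of 9 other measured genes had a higher mean with VPA. Their groups did not overlap in 5 genes higher, Hspa5 and Hspa4l among them, and in 1 lower. This was 66.7% of the 9, against 42.2% of all genes and 10% of the chaperonins, the lowest share of the 8 lists. Hspa13, an HSP70-like ATPase of the endoplasmic reticulum, read 7.40 and 6.88 on the untreated arrays and 7.59 and 7.78 on the VPA arrays, a difference of 0.54 ± 0.20 (SE) that was 0.29 without untreated replicate 2. Hspa5 (BiP), the HSP70 of that compartment, read 10.67 and 10.61 untreated and 10.89 and 10.93 with VPA, a difference of 0.27 ± 0.11 (unadjusted p = 0.052 and adjusted p = 0.544 in limma). The unadjusted p of Hspa5 in limma was 0.031 after a second quantile normalization and 0.102 with the replicate number added to the model. Hspa4l, an HSP110 form, differed by 0.19 ± 0.14, by 0.037 without untreated replicate 2 and by 0.34 without the other untreated array. The 3 measured HSP90 genes were all higher in the means, with a median of 0.25 and overlapping arrays in 2 of them.

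Small heat shock proteins other than Hspb1 had 7 of 9 lower means, with a median of −0.057. None of those 7 lay below −0.10, and Cryab, the alpha-crystallin of muscle and lens, differed by −0.057 ± 0.11 (SE). Hspb8, which works with BAG3 in selective autophagy, stood at the other end with 5.59 and 5.47 on the untreated arrays and 5.78 and 6.16 on the VPA arrays. Its groups did not overlap, and the difference was 0.44 ± 0.16 (adjusted p = 0.53 in limma), which was 0.25 without VPA replicate 2 and 0.63 without VPA replicate 1. The unadjusted p of Hspb8 in limma was 0.043, and 0.067 after a second quantile normalization. Hspb1 at −0.40 and Hspb8 at 0.44 thus had the lowest and highest differences of the 10 measured genes of this list.

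J-domain proteins of classes A and B, to which Dnajb1 belongs, had 13 of 16 other genes with higher means and a median of 0.059. Dnajb4, a close relative of Dnajb1, read 4.40 and 4.23 untreated and 4.81 and 4.65 with VPA, a difference of 0.42 ± 0.13 (SE). Dnajb7, with a dim untreated mean of 2.27, differed by 0.32 ± 0.11. Both had an unadjusted p under 0.05 in limma, with adjusted p of 0.504 and 0.51.

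Chaperonins fold proteins inside a closed barrel, and the differences of their 10 measured genes lay between −0.14 and 0.14, with 0 genes at an unadjusted p under 0.05. The mitochondrial pair Hspd1 and Hspe1 differed by 0.014 ± 0.12 and −0.14 ± 0.13 (SE). The sign of Hspd1 turned on its other probe set, at −0.079. Hspe1 gave −0.076 on its other probe set, and on its main one −0.053 without VPA replicate 1 and −0.055 without untreated replicate 2. Among 15 HSP90 co-chaperones 13 had higher means with a median of 0.069, and Stip1, which links HSP70 to HSP90, differed by −0.0032 ± 0.11, and the sign turned when the arrays were quantile-normalized again.

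Nucleotide exchange factors and other HSP70 partners went both ways, with 6 of 14 higher means and a median of −0.023. Grpel2, which serves the mitochondrial HSP70, read 6.99 and 6.79 on the untreated arrays and 7.40 and 7.44 on the VPA arrays. The difference of 0.53 ± 0.12 (SE; unadjusted p = 0.0075 and adjusted p = 0.472 in limma) had the smallest p of the 83 genes. Bag2, an HSP70 exchange factor that inhibits the ubiquitin ligase Stub1, differed by −0.34 ± 0.12 from a dim untreated mean of 3.76. Bag3, a stress-induced partner and HSF1 target, differed by 0.19 ± 0.11. Stub1 differed by 0.11 ± 0.16, which turned to −0.0026 without untreated replicate 2 and to −0.045 without VPA replicate 2.

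Of 8 measured heat shock factors and regulators, 4 had higher and 4 lower means, and 0 had an unadjusted p under 0.05 in limma. Hsf2, a second heat shock factor, read 7.02 and 6.56 untreated and 6.72 and 6.89 with VPA, a difference of 0.017 ± 0.19 (SE). That sign was the opposite after renormalizing by quantiles and without untreated replicate 2 or VPA replicate 2. Hdac6, the deacetylase of HSP90, differed by 0.15 ± 0.13, and by 0.040 to 0.25 when untreated replicate 2 or untreated replicate 1 was left out. Sirt1, which deacetylates HSF1, differed by −0.25 ± 0.18 and by −0.47 without untreated replicate 2, against −0.021 without untreated replicate 1.

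**Figure D4:**
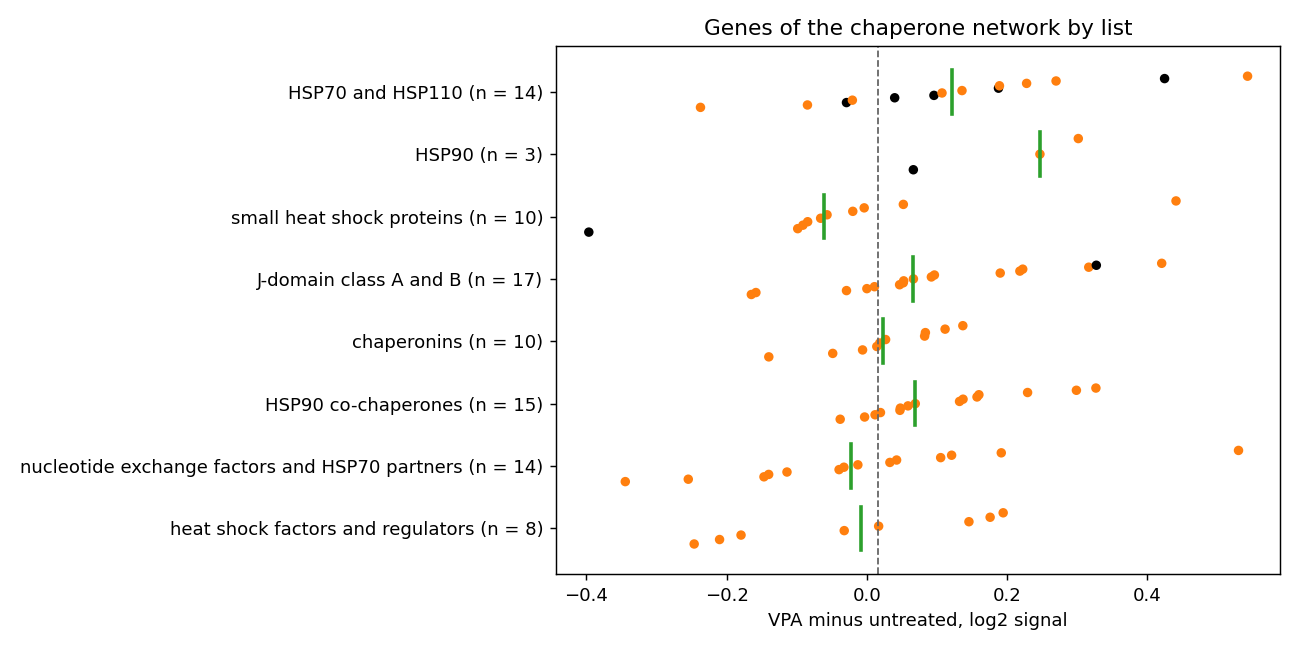
Difference between VPA and untreated arrays on the log2 scale (horizontal axis) for each measured gene of 8 chaperone lists. Black points are the 8 heat shock protein genes, orange points other genes, green bars list medians and the dashed line the median of all genes at 0.015; the list medians lie between −0.061 and 0.25.

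The cells carried the markers of their label. Pluripotency markers (12 of 12 measured) summed to between 18660 and 20407 on the linear signal scale on the untreated arrays and between 18791 and 19147 on the VPA arrays. Their sums overlapped, but 9 of 12 had lower means with VPA, 7 of these without overlap, and the median difference was −0.18. At an unadjusted p under 0.05 in limma 4 were lower. Among all genes 18.1% were lower without overlap and 2.71% lower at that p (21% and 3.74% after a second quantile normalization). The mean log2 signal of these 12 markers was 10.11 and 10.08 on the untreated arrays and 9.91 and 9.95 on the VPA arrays. Fibroblast feeder markers (18 of 19) summed to between 2310 and 2331 untreated and between 2173 and 2185 with VPA, so their sums did not overlap. The mean was lower in 14 of 18, with a median difference of −0.079. Groups did not overlap in 6 of these markers lower and 3 higher, where 18.1% of all genes were lower and 24.1% higher. Such sums weigh bright genes most. Vim and Sparc, at untreated means of 10.24 and 9.14, differed by −0.018 and −0.26, and the other untreated means were at most 6.83. Thy1 went the other way, at 0.31. Primitive endoderm markers (8 of 8) summed to 279 and 283 untreated and 244 and 245 with VPA, with 5 lower and 3 higher means. Their groups did not overlap in 5 genes lower and 2 higher. Lama1, the brightest at an untreated mean of 7.42, differed by −0.25, and the other untreated means were at most 4.77. Sox7 differed by −0.59 and Dab2 by 0.36. Trophoblast markers (7 of 8) summed to 138 and 153 untreated and 136 and 159 with VPA. The part of the marker shifts in the Hspb1 difference was not tested. In bulk RNA, fewer cells of a type and less RNA per cell cannot be told apart.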

How the data were processed

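The authors deposited log2 signals, which Affymetrix Expression Console 1.1 made by RMA according to the submitters' processing notes. That method subtracts background, sets the arrays to a common distribution and combines the probes of a probe set, and its background step compresses differences of dim probe sets. The set of arrays normalized jointly is not stated there. Scanner files and detection calls were not used here. The values span 1.41 to 13.95, and the medians of the arrays 3.80 to 3.82. For arrays, their number limits the precision.

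Groups came from the treatment in the labels. Gene names came from the platform annotation: 21789 probe sets had 1 symbol, 1621 several and 12146 none here. The comparison used limma 3.58.1 (lmFit, eBayes) under R 4.3.3, with treatment as the only term, over all 35556 probe sets, two-sided, with Benjamini-Hochberg adjustment and a threshold of 0.05. Residual degrees of freedom were 2, and moderation added 2.93. An exact permutation test of 2 against 2 cannot go below 0.33. Of the scripts, only the limma function was tested on simulated data, and its calls were checked there only for changes larger than those reported here.

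The genes and lists were chosen with earlier results of these data known. Besides the 10 genes, the text names at most 4 genes per list, those with the smallest unadjusted p under 0.05, and 12 genes named beforehand where a probe set was annotated to them alone. Genes of the lists not analysed here include Hsbp1l1, Hsf1, Hsp90ab1 and Hspa1b. Promoter sequences are those of RefSeq on GRCm38.p6. Alternatives covered scaling, dim probe sets, moderation, the replicate block, the choice of probe set and each array left out.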

Additional observations from a re-analysis of the deposited data

How the results depend on the processing

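In the 12 alternatives, 0 of the 8 genes and 0 probe sets passed the adjusted threshold wherever the test was run. The sign of the 8 genes' differences was kept in 92 of 96 values. Leaving out 1 array moved Hsp90aa1 between −0.092 and 0.22, Hspa4 between −0.053 and 0.13, Hspa8 between −0.10 and 0.042, Hsph1 between −0.050 and 0.24, Hsf2 between −0.21 and 0.25, Hspd1 between −0.086 and 0.11, Stip1 between −0.047 and 0.041 and Stub1 between −0.045 and 0.26. Hsf2 was −0.052 and Stip1 0.0014 after a second quantile normalization, and Hspd1 was −0.032 as the mean of its probe sets and −0.079 on its dimmest.

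Without 1 array, the genes with an unadjusted p under 0.05 in limma numbered 0 to 2 among the 8 and 2 to 5 among the other 83 chaperone genes, and the genes whose groups did not overlap 3 to 8. A single array cannot overlap itself, so more groups separate by construction. The median of the 8 ran from −0.052 to 0.23. Over all probe sets, 1827 to 4242 had an unadjusted p under 0.05 (3269 with all arrays, 2049 higher and 1220 lower; 1670 and 1542 after a second quantile normalization). Groups did not overlap for 23877 to 26248 (14352 with all arrays), and at 1.5-fold for 1432 to 2393 (990 with all arrays, 717 higher and 273 lower; 589 and 363 after that normalization). With the dimmer probe sets left out, which tests fewer, these were 8362 and 604.

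The replicate number pairs nothing in the labels, and deviations of same-numbered arrays correlated at −0.097 over probe sets. With the replicate block, 1 of the 8 genes (Hspa2) and 2 of the 83 had an unadjusted p under 0.05 in limma, and 0 passed. The cause of these shifts was not tested.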
